A study of Mus musculus with 12 samples.

Results

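The C-type lectin family was taken here as the 30 genes of the count table, of 54532 in all, whose name is Clec followed by a number and whose listed biotype is protein_coding. They were sorted by known role into 15 lectins of myeloid cells and 15 others, among them the neuronal Clec2l. RNA came from dorsal root ganglia, the clusters of sensory nerve cell bodies beside the spinal cord, of C57BL/6 mice in 6 control and 6 DAAO libraries, and all mice received D-Alanine. Controls had the genotype CDH5-Cre, a recombinase driven by the promoter of vascular endothelial cadherin. This promoter is active in endothelium, and Cre lines made with it can also mark blood cells, myeloid cells included; where Cre or DAAO was active was not measured here. The DAAO mice had the genotype DAAO-TGCdh5, a transgene of D-amino acid oxidase, an enzyme that makes hydrogen peroxide from D-amino acids. Their genotype label does not name Cre, which the sample names do. The comparison asks how the lectin transcripts of the ganglion differ between these genotypes. Whether each library is 1 animal is not stated, and the tests then see the spread among libraries alone. The family was chosen by name, but selected on the fold changes and p-values of some members in this same comparison, so its fold changes and p-values are a description and no independent evidence.

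C-type lectins are proteins with a domain first known for binding sugars in a calcium-dependent way, and many members bind lipids or proteins instead. On macrophages, monocytes, neutrophils and dendritic cells they sense microbes and damaged cells. Activating members signal through the kinase Syk and the adaptor Card9, either through a motif in their own tail or through a partner such as the Fc receptor gamma chain (Fcer1g) or Tyrobp, and inhibitory members recruit the phosphatases Ptpn6 and Ptpn11. Other members serve as ligands of natural killer (NK) cell receptors, as surface proteins of endothelium and platelets, or as secreted proteins of connective tissue.

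Each library held between 13227518 and 23884927 counts. Values are CPM, which put libraries of unlike depth on 1 scale with TMM factors, as mean ± SD over 6 libraries. Of the 30 members 28 had at least 1 count and 18 passed the filter on low counts and were tested, 9 myeloid and 9 others. Of these 18, 11 reached the filter's count minimum in all 6 controls and 14 in all 6 DAAO libraries. Control 2 and control 6 had the highest mitochondrial shares, 7.44% and 7.65% of counts, against 3.32% to 5.13% in the other 10 libraries. The summed CPM of 6 skeletal muscle markers ran from 10.9 to 2246 in controls and from 3.70 to 379 in DAAO libraries, and that of 6 spinal cord glia markers from 34.9 to 3448 and from 172 to 1410. Of the tested markers of Schwann cells (7), satellite glia (3), fibroblasts and nerve sheath (7), muscle (6) and spinal cord glia (6), none passed with edgeR or limma-voom, 1 satellite glia marker passed with DESeq2, and 4 Schwann cell and 1 satellite glia marker had an unadjusted p under 0.05. Over all genes tested 10.3% had an unadjusted p under 0.05 and 362 of 17002 passed with DESeq2. Pan-neuronal markers were abundant in every library (summed CPM of 8 markers, 6870 to 13392).

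Of the 18 tested members 2 passed in the DAAO comparison, Clec4d higher and Clec2l lower (edgeR's quasi-likelihood test, adjusted p under 0.05 over 17002 genes), where 0.753% of all genes tested passed, 0.506% higher and 0.247% lower. The log2 fold change was above 0 in 10 members and below 0 in 8, with a median of 0.22; over all genes tested 50.4% were above 0 and the median was 0.00. The DAAO and control libraries did not overlap in the same 2 members, against 1.45% of all genes tested. An unadjusted p under 0.05 was reached by 4 members, Clec2l, Clec4d, Clec2d and Clec4n, against 10.3% of all genes. The adjusted p of the 16 members that did not pass lay between 0.313 and 0.989.

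**Figure D1:**
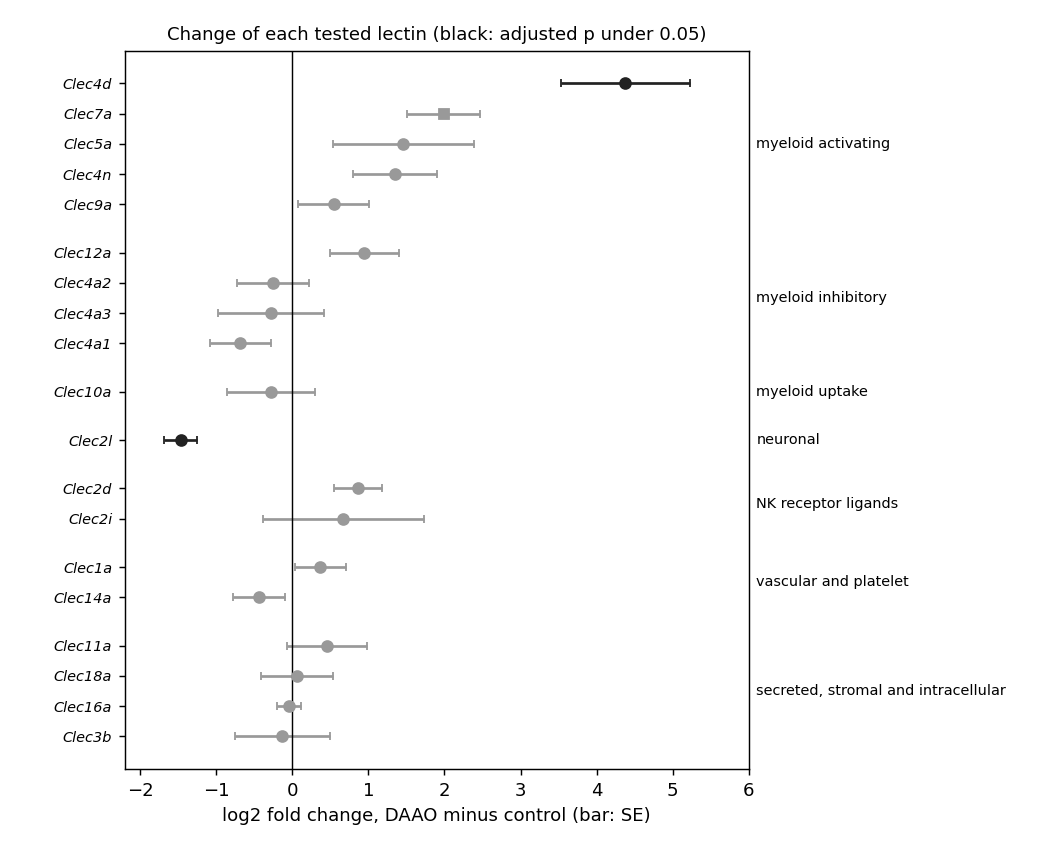
Log2 fold change (DAAO minus control, with its SE as a bar) of the 18 tested C-type lectins by role, and of Clec7a (square), whose listed biotype keeps it out of the family count. Clec4d at 4.38 and Clec2l at -1.47, in black, passed at an adjusted p under 0.05; the points in grey did not.

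Clec4d encodes a receptor of macrophages, monocytes and neutrophils that binds mycobacterial glycolipid and pairs with Clec4e (Mincle) and the Fc receptor gamma chain. It lies at chromosome 6, 123262111 to 123275265 on the forward strand (ENSMUSG00000030144, build GRCm38), with 6 exons in its longest annotated transcript. In the controls 3 libraries had no count of it, and controls 2, 3 and 6 stood at 0.216, 0.649 and 0.240 CPM. The DAAO libraries 1 to 6 stood at 2.22, 3.64, 7.80, 1.69, 2.23 and 6.03 CPM. Every DAAO library lay above the highest control. The mean was 0.184 ± 0.254 CPM in controls and 3.93 ± 2.46 in DAAO (SD, n = 6), a ratio of means of 21.4, from 20 counts in all controls together and 428 in the DAAO libraries. The log2 fold change was 4.38 ± 0.85 (SE, adjusted p = 0.0202 by edgeR's quasi-likelihood test). Only 1 control library reached the filter's count minimum, so the gene entered the test through the group in which it was high. In whole ganglia more cells that carry it and more RNA per cell cannot be told apart. The call was lost without DAAO 2, 3 or 6 (adjusted p = 0.0537, 0.0789 and 0.0764) and with limma-voom (adjusted p = 0.0584), with adjusted p from 2.17e-06 (DESeq2) to 0.0789 over all alternatives, and without control 3, which held 13 of the 20 control counts, the log2 fold change was 5.45.

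Clec4d sits in a run of 9 lectin genes of the family between 122921848 and 123289870 on chromosome 6, in the order Clec4a1, Clec4a3, Clec4a4, Clec4b1, Clec4a2, Clec4b2, Clec4n, Clec4d and Clec4e. Of these 5 were tested and 1 passed, Clec4d, against 0.753% of all genes tested. Clec4e, the partner receptor, ends 6.52 kb from the end of Clec4d on the other strand. It had 43 counts in controls and 36 in DAAO libraries and was too low to test. In controls 1 to 6 it stood at 0.665, 0.593, 0, 0.0936, 0.707 and 0.320 CPM, and in DAAO libraries 1 to 6 at 0, 0.103, 0, 1.25, 0.463 and 0. The highest Clec4e value was in DAAO 4, the library with the lowest Clec4d of its group, which held 23 of the 36 DAAO counts of Clec4e. The 3 DAAO libraries with no Clec4e count were DAAO 3 and 6, the highest for Clec4d, and DAAO 1, at 2.22 CPM of Clec4d below all but DAAO 4. At such low counts no relation between the 2 genes can be read. Of the reads of the neighbours Clec4n, Clec4d and Clec4e together, Clec4d held 14.3% over all controls (20 of 140) and 64.8% over all DAAO libraries (428 of 660). By library that share ran from 0% to 35.1% in controls and from 40.8% to 87.4% in DAAO. This share uses the same Clec4d counts, already apart, and rests on as few as 6 reads in control 4. It is thus no further evidence.

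**Figure D2:**
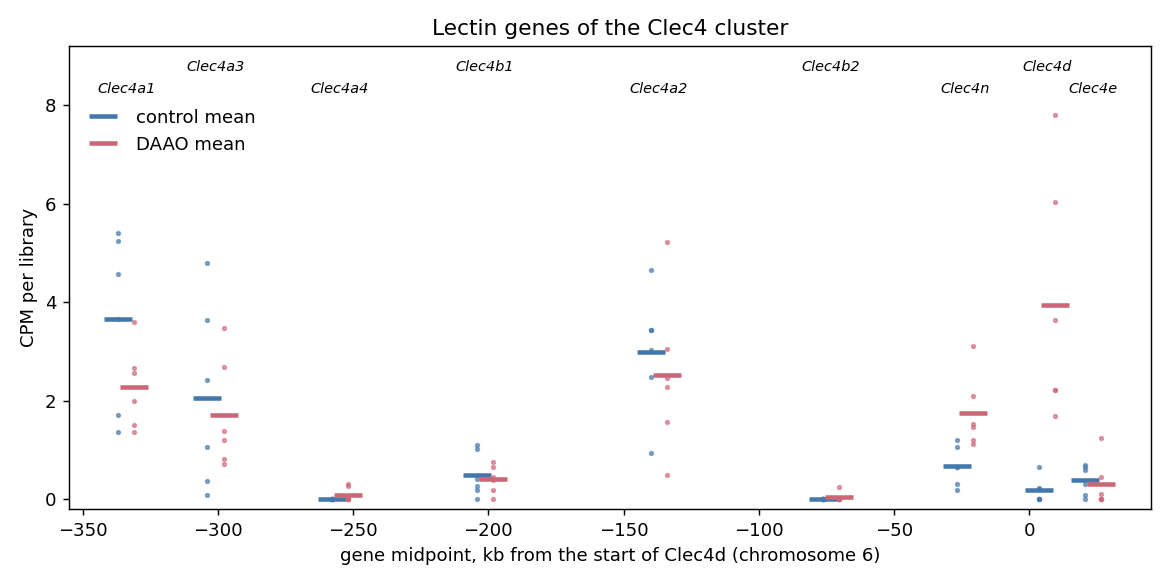
CPM per library (points) and group means (bars) of the 9 lectin genes of the Clec4 run, at their distance in kb from the start of Clec4d. Clec4d averaged 0.184 and 3.93 CPM in controls and DAAO libraries, while its neighbour Clec4e stood at 0.397 and 0.303.

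The start regions of 3 members are shown to set the called genes beside a neighbour that was not: Clec4d was higher in DAAO libraries, its neighbour Clec4e was too low to test and Clec2l was lower. Each window runs from 250 bases before to 50 bases after the RefSeq start (GRCm38.p6), 5′ to 3′ on the gene's strand. Capitals mark GAGGAA, the core bound by the myeloid factor PU.1, or its reverse complement TTCCTC.
Clec4d, chr6:123261857-123262156, forward strand: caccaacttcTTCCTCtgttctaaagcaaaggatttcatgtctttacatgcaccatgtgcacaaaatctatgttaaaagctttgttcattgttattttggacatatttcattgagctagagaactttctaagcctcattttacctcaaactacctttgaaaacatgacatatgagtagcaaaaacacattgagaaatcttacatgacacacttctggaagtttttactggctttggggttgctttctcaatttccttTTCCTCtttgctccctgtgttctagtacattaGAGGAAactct
Clec4e, chr6:123289822-123290121, reverse strand: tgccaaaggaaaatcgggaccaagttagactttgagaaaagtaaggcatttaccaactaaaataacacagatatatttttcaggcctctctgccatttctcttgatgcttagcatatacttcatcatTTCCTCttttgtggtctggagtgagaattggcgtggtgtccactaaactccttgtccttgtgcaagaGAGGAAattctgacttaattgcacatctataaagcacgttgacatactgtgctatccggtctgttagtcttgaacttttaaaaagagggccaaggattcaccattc
Clec2l, chr6:38662819-38663118, forward strand: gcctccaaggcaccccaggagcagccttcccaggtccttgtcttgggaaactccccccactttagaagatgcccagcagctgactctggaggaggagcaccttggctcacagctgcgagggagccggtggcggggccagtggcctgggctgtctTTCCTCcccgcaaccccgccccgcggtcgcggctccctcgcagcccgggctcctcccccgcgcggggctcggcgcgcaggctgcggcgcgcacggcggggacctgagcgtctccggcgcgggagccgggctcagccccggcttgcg

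The Clec4d window held 3 matches, that of Clec4e 2 and that of Clec2l 1. On either strand this core was found in 28.3% of 32851 promoter windows of the same length, and in those of 8 of 12 myeloid members and 6 of 12 other members with a window. The AP-1 motif TGANTCA and the estrogen-related receptor half-site AAGGTCA were also searched on both strands; they occur in 7.81% and 4.72% of all windows and in none of the 3 shown. The Clec2l window was 73.7% G and C with 29 CG pairs, and the Clec4d window 36.0% with 0 CG pairs, against a median of 52.7% and 7 CG pairs over all windows. The Clec4e window held 40% with 4 CG pairs, and the 13 windows of myeloid members had a median of 40.7% and 2 CG pairs. A low share was thus not particular to Clec4d. A match here is a match of letters and not a measured binding site.

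Of the other 6 activating receptors of myeloid cells 3 were tested and none passed with edgeR's quasi-likelihood test, DESeq2 or limma-voom, 1 (Clec4n) with an unadjusted p under 0.05. Clec4n (Dectin-2, a receptor for fungal mannans) stood between 0.187 and 1.2 CPM in controls, with a median of 0.656, and between 1.12 and 3.10 in DAAO libraries, with a median of 1.5. The groups overlapped, with control 3 at the level of DAAO 3 and 4 and the other 5 controls below every DAAO library (log2 fold change 1.35 ± 0.55 SE, adjusted p = 0.387). Clec5a, which signals through Tyrobp, stood at 0 to 2.91 CPM in controls (median 0.177) and at 0.436 to 4.21 in DAAO libraries (median 1.38). Its values were uneven in both groups: control 2 lay more than 2 CPM above the other controls, and DAAO 1, 2 and 3 lay above DAAO 4, 5 and 6. The log2 fold change of Clec5a was 1.46 ± 0.93 (adjusted p = 0.644), and 2.84 without control 2 (adjusted p = 0.139; 0.124 to 0.885 over all alternatives). Clec9a, a receptor of cross-presenting dendritic cells for actin exposed by dead cells, stood at 1.28 ± 0.468 and 1.87 ± 0.692 CPM (0.55 ± 0.47 SE, adjusted p = 0.778). It overlaps Clec1b on the same strand, so some of its reads are uncertain. Of the 7 activating members the 4 tested, Clec4d included, had log2 fold changes above 0 with a median of 1.41, where 50.4% of all genes tested were above 0, and 1 passed, against 0.753% of all genes. Clec4d, Clec5a, Clec4n and Clec9a reached the filter's count minimum in 1, 2, 4 and 5 controls and in 6, 4, 6 and 6 DAAO libraries. They thus entered the test more through the DAAO group, and their shared direction is a description and no independent evidence. Of the 3 not tested, Clec4e and Clec4b1 averaged lower in DAAO libraries (0.397 and 0.303 CPM, and 0.499 and 0.405), and Clec4b2 had 0 and 5 counts.

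Clec7a (Dectin-1), the receptor for fungal beta-glucan, is listed as a polymorphic pseudogene in the table and in GENCODE M21, and as protein_coding in RefSeq, so it falls outside the 30. Its 6 controls stood at 4.27, 7.28, 6.34, 1.68, 7.27 and 1.84 CPM and its 6 DAAO libraries at 18.2, 20.4, 42.1, 8.93, 6.35 and 19.0. DAAO 5 lay within the control range, and the other 5 DAAO libraries lay above it. The mean was 4.78 ± 2.58 CPM in controls and 19.1 ± 12.6 in DAAO (SD, n = 6; log2 fold change 1.99 ± 0.48 SE, adjusted p = 0.0879 by edgeR's quasi-likelihood test). Clec7a passed without DAAO 5 (adjusted p = 0.0354) and with DESeq2 (adjusted p = 0.000599), and its adjusted p reached 0.243 with no filter on low counts.

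The myeloid members grouped here as inhibitory or uptake receptors did not move one way. Clec12a, an inhibitory receptor that binds uric acid crystals, stood between 0.608 and 7.98 CPM in controls (median 3.28) and between 3.49 and 12.8 in DAAO libraries (median 5.52). All 6 DAAO libraries lay above the control median, but control 5 exceeded 4 of them (log2 fold change 0.95 ± 0.45 SE, adjusted p = 0.495). Of the 4 dendritic cell immunoreceptor (DCIR) genes, Clec4a1 to Clec4a4, 3 were tested and had log2 fold changes below 0, and Clec4a4 was too low to test, with 0 counts in controls and 11 in DAAO libraries. Clec4a1 stood at 3.66 ± 1.76 and 2.28 ± 0.830 CPM (-0.68 ± 0.40 SE, adjusted p = 0.610), with 6 of 6 DAAO libraries below the control median. Clec4a2 and Clec4a3 had -0.25 ± 0.48 and -0.28 ± 0.70 (adjusted p = 0.932 and 0.955), and Clec4a3 turned above 0 with limma-voom (0.14), with the replicate number as a block (0.091) and without control 2 (0.17). Clec10a, a galactose-binding uptake receptor of macrophages and dendritic cells, had -0.28 ± 0.58 (adjusted p = 0.939), and 2.64% of the 100-base stretches of its transcripts also occur in its copy Mgl2. Over the 4 tested members grouped here as inhibitory, whose signalling was not measured, the median was -0.26, with 1 above 0 and 3 below. None of these 5 members passed with edgeR, DESeq2 or limma-voom, and none had an unadjusted p under 0.05.

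**Figure D3:**
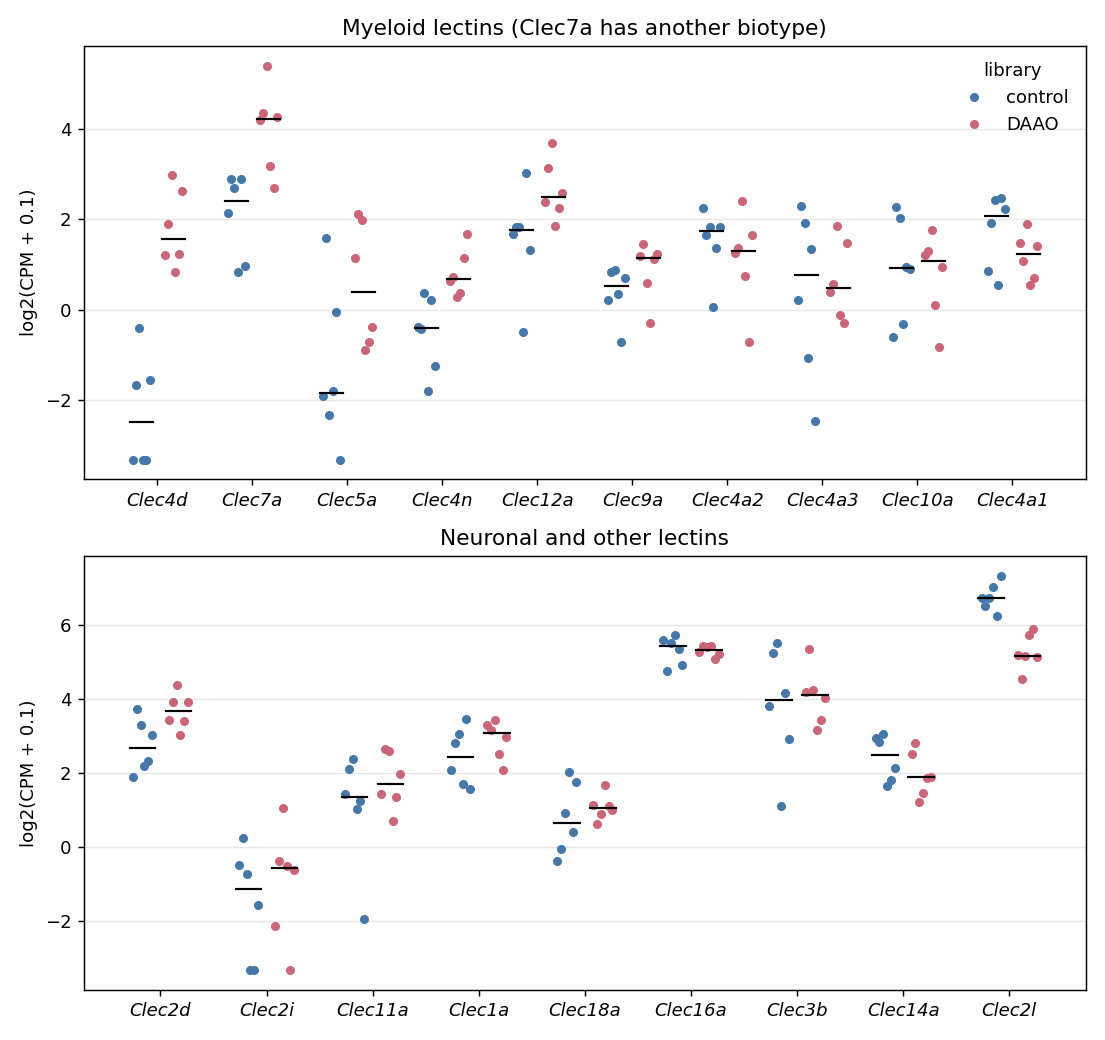
CPM of each tested lectin in each library on the log2(CPM + 0.1) scale, in order of fold change, with group medians as bars; the upper panel holds the myeloid lectins with Clec7a and the lower panel the other members. The groups separate fully in Clec4d, where DAAO libraries were higher, and in Clec2l, where they were lower.

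No gene of the signalling list passed with edgeR's quasi-likelihood test. Of 14 genes of lectin receptor signalling 13 were tested, 11 with a log2 fold change above 0 and 2 below, with a median of 0.50 against 0.00 over all genes tested. Of the 13, 5 had an unadjusted p under 0.05, against 10.3% of all genes tested. With DESeq2 2 passed (Tyrobp and Fcer1g), where 362 of 17002 genes did, and with limma-voom 0, where 100 genes did. Tyrobp, the partner of Clec5a, stood at 7.50 ± 4.74 and 27.6 ± 15.8 CPM (log2 fold change 1.88 ± 0.48 SE, adjusted p = 0.12), and Fcer1g, the partner of Clec4d, at medians of 9 and 24.2 (1.28 ± 0.42, adjusted p = 0.246). Syk stood at 4.14 ± 1.71 and 8.04 ± 2.72 CPM (adjusted p = 0.291), and Card9 at 1.86 ± 0.975 and 2.83 ± 1.17 (adjusted p = 0.751). Of 38 other proteins with a C-type lectin domain 19 were tested, with 11 above 0 and 8 below and a median of 0.08. None of the 19 passed with edgeR, DESeq2 or limma-voom, and 4 had an unadjusted p under 0.05. Among them Mgl2, a galactose-binding receptor like Clec10a, stood at 8.81 ± 4.42 and 3.62 ± 2.25 CPM (-1.28 ± 0.42 SE, adjusted p = 0.228). Of 6 ligands and partners 5 were tested and 1 passed, against 0.753% of all genes tested. It was the filament protein vimentin (Vim), which rose by 0.68 ± 0.15 (SE, adjusted p = 0.0434 by edgeR's quasi-likelihood test). Pdpn, the ligand of Clec1b, had 0.15 ± 0.23 (adjusted p = 0.905).

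The summed CPM of 12 macrophage markers was 68.8 to 426 in controls (median 181) and 193 to 634 in DAAO libraries (median 417). Of the 12 markers 9 had a log2 fold change above 0, against 50.4% of all genes tested, with a median of 0.82. None passed with edgeR or limma-voom, and 1 passed with DESeq2, where 362 of 17002 genes did. An unadjusted p under 0.05 was reached by 7, against 10.3% of all genes tested. Cd68, a lysosomal protein of phagocytes, stood at 4.88 ± 3.71 and 29.0 ± 17.7 CPM (2.56 ± 0.60 SE, adjusted p = 0.0902), while the scavenger receptor Cd163 stood at 16.2 ± 10.5 and 8.19 ± 2.27 (-0.98 ± 0.39, adjusted p = 0.387). Per 1000 CPM of macrophage markers Clec4d ran from 0 to 2.40 in controls and from 5.93 to 12.3 in DAAO libraries, without overlap. This ratio uses the same Clec4d values, already apart and with 20 counts in all controls, so it is no further evidence. Control 2, with the highest macrophage sum of the controls (426), had 0.216 CPM of Clec4d. It is 1 library, and its mitochondrial share (7.44%) and spinal cord glia sum (3448) were high too. In DAAO libraries 1 to 6 the macrophage sum was 374, 459, 634, 193, 221 and 507. Clec4d there stood at 2.22, 3.64, 7.80, 1.69, 2.23 and 6.03 CPM. How Clec4d goes with the macrophage sum was not tested. Per 1000 CPM of the same markers Clec7a ran from 12.2 to 35.2 in controls and from 28.7 to 66.4 in DAAO libraries, which overlapped.

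Other blood cells also carry these lectins. The 7 tested neutrophil markers had log2 fold changes below 0 in all 7 (median -0.75, 0 passing with edgeR, DESeq2 or limma-voom and 0 with an unadjusted p under 0.05), with summed CPM of 11.5 to 222 in controls and 7.41 to 130 in DAAO. Ly6g, one of their defining markers, did not pass the filter on low counts and was not tested. It had 0 counts in controls and 49 in DAAO libraries, from which no change of neutrophils can be read. Monocyte markers had a median of -0.09 over 4 tested (0 passing with any of the 3 tools, 1 with an unadjusted p under 0.05), with summed CPM of 4.77 to 25.5 and 7.13 to 25.0. Of the 5 tested dendritic cell markers 1 passed with edgeR, 2 with DESeq2 and 0 with limma-voom, where 128, 362 and 100 of 17002 genes did. With edgeR it was the integrin Itgax (CD11c), also carried by activated macrophages. Itgax rose from 0.765 ± 0.557 to 7.86 ± 3.86 CPM (3.35 ± 0.49 SE, adjusted p = 0.00217 with edgeR and 0.0508 with limma-voom). The dendritic growth factor receptor Flt3 had -0.76 ± 0.20 (adjusted p = 0.0971, and 0.0172 with DESeq2). The summed dendritic markers ran from 25.4 to 44.7 in controls and from 30.1 to 42.3 in DAAO. Of the tested markers of NK and T cells (1), B cells (1), platelets (2) and erythroid cells (5), none passed with edgeR, DESeq2 or limma-voom and none had an unadjusted p under 0.05. The part of macrophage and other blood cell markers in the lectin values was not tested.

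**Figure D4:**
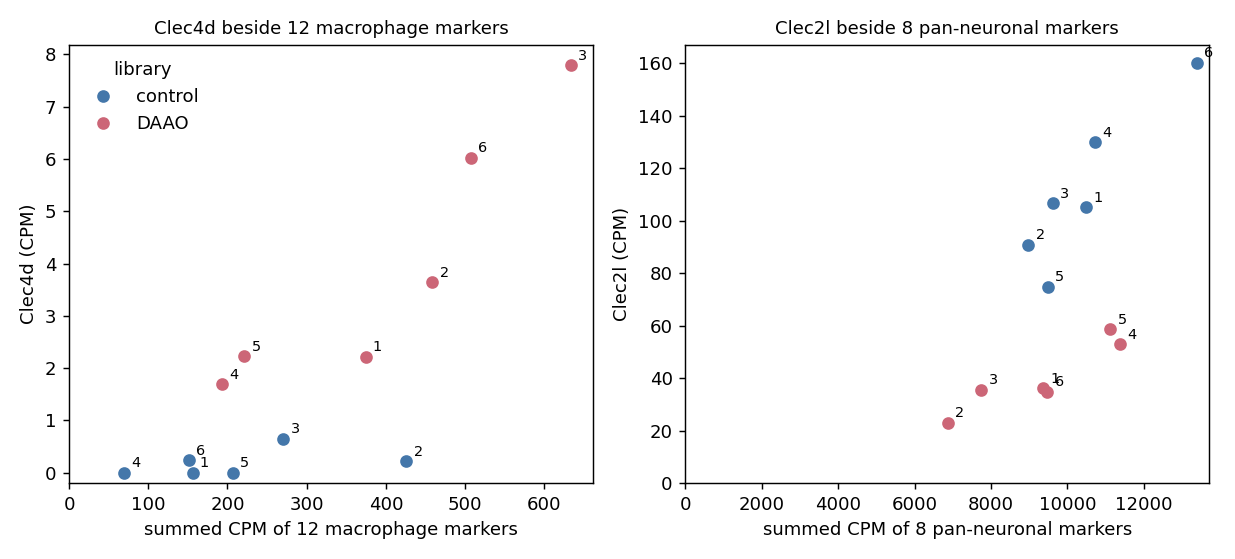
Clec4d against the summed CPM of 12 macrophage markers (left) and Clec2l against that of 8 pan-neuronal markers (right), 1 point per library with its replicate number. Control 2, the control with the highest macrophage sum (426), has a Clec4d of 0.216 CPM. It is 1 library, with a high mitochondrial share (7.44%) and spinal cord glia sum (3448). DAAO 3, with the highest macrophage sum of all libraries (634), has 7.80 CPM, and DAAO 4, with the lowest of the DAAO libraries (193), has 1.69. DAAO 4, the DAAO library with the highest pan-neuronal sum (11369), has a Clec2l of 53.0 CPM. Neither relation was tested.

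Clec2l was the member that fell. Per length it had the highest mean of the family in both groups, in DAAO libraries by less than the sum of its SD and that of Clec3b. It encodes a membrane protein of the Clec2 group described mainly in brain, unlike the NK receptor ligands it is named with, and lies at chromosome 6, 38663069 to 38680864 on the forward strand (ENSMUSG00000079598, 5 exons in its longest annotated transcript). Controls 1 to 6 stood at 105, 90.9, 107, 129.9, 74.9 and 160.3 CPM. DAAO libraries 1 to 6 stood at 36.2, 23.1, 35.6, 53.0, 58.8 and 34.9 CPM. All 6 DAAO libraries lay below the lowest control. The mean fell from 111 ± 30.1 to 40.3 ± 13.2 CPM (SD, n = 6), 2.76-fold lower, on 11976 and 4600 counts. On the log2 scale the change was -1.47 ± 0.22 SE, and the adjusted p was 0.00305 by edgeR's quasi-likelihood test. The gene passed with DESeq2 and limma-voom and without each library in turn, where the log2 fold change ran from -1.60 to -1.34 (adjusted p from 0.00194 to 0.0147).

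Clec2l is set here beside markers of neurons. For 8 pan-neuronal markers the median log2 fold change was -0.12, with summed CPM of 8981 to 13392 in controls and 6870 to 11369 in DAAO libraries. Of the 8, 1 passed, against 0.753% of all genes tested (Snap25, -0.61 ± 0.14 SE, adjusted p = 0.0498 by edgeR's quasi-likelihood test). Per 1000 CPM of these markers Clec2l stood at 7.89 to 12.1 in controls and 3.36 to 5.28 in DAAO, without overlap. This ratio uses the same Clec2l values, already apart, so it is no further evidence. The 6 markers of proprioceptors and large neurons were all below 0 with a median of -0.75, where 50.4% of all genes tested were above 0. With edgeR 3 passed as lower (Runx3, Etv1 and Whrn), against 0.247% of all genes tested. With DESeq2 4 passed and with limma-voom 4, where 362 and 100 of 17002 genes did. An unadjusted p under 0.05 was reached by 5, against 10.3% of all genes tested. Runx3, a transcription factor of proprioceptors, had -2.10 ± 0.33 (adjusted p = 0.00455). The summed CPM of these 6 ran from 1431 to 3279 in controls and from 1138 to 1767 in DAAO libraries. Both sums overlapped between groups, and the part of neuronal markers in the fall of Clec2l was not tested.

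The ligands of NK cell receptors did not pass. Clec2d, the ligand of the inhibitory receptor NKR-P1B and carried by many cell types, stood at 3.60 to 13.2 CPM in controls (median 6.48) and 8.11 to 20.8 in DAAO libraries (median 12.8). All 6 DAAO libraries lay above the control median and 3 above the highest control, control 2 (log2 fold change 0.87 ± 0.31 SE, adjusted p = 0.313). Clec2d passed without controls 2 and 6, the libraries with the highest mitochondrial shares (1.24, adjusted p = 0.0357), and its adjusted p reached 0.550 when other libraries were left out in turn. Clec2i had 44 counts in controls and 70 in DAAO libraries (0.67 ± 1.06, adjusted p = 0.909), and 35 of the 70 were in DAAO 3, without which the log2 fold change was -0.078. Clec2e had 17 counts in controls 2 and 6 and 0 in DAAO libraries, Clec2h had 1 count in all, and Clec2g had none.

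Members of vessels and platelets did not pass, and their groups overlapped. Clec14a, an endothelial adhesion protein that binds the matrix protein Mmrn2, averaged 5.58 ± 2.26 and 4.12 ± 1.83 CPM (-0.44 ± 0.34 SE, adjusted p = 0.745). Clec1a, found on endothelium and myeloid cells, stood at 6.01 ± 3.16 and 7.78 ± 2.47 (0.37 ± 0.34, adjusted p = 0.805). Neither passed with edgeR, DESeq2 or limma-voom or had an unadjusted p under 0.05. The 9 endothelial markers had a median of 0.06, with 0 passing with the same 3 tools and 1 with an unadjusted p under 0.05, and with summed CPM of 147 to 196 in controls and 121 to 236 in DAAO. Clec1b, the podoplanin receptor of platelets, had 29 and 35 counts, and Clec4g, of liver endothelium, 0 and 4.

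The secreted and intracellular members held most of the remaining lectin reads and did not pass. Clec3b (tetranectin, a secreted plasminogen-binding protein) ranged from 2.06 to 45.1 CPM in controls (median 15.8) and from 8.82 to 40.9 in DAAO libraries (median 17.1) (-0.13 ± 0.62 SE, adjusted p = 0.980). Clec16a, an intracellular protein of endosomes and mitophagy that lacks a working lectin domain, stood at 40.9 ± 10.4 and 39.7 ± 3.80 CPM (-0.04 ± 0.16, adjusted p = 0.970), the smallest SE of the tested members. Clec11a, a growth factor of bone-forming stroma, had 0.46 ± 0.53 (adjusted p = 0.863), and Clec18a had 0.07 ± 0.47 (adjusted p = 0.989). None of these 4 passed with edgeR, DESeq2 or limma-voom or had an unadjusted p under 0.05.

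Per length, as RPKM (CPM divided by gene length), Clec2l led the controls at 77.9 ± 21.1, ahead of Clec3b at 20.8 ± 17.3, Clec2d at 6.03 ± 3.05 and Clec16a at 4.88 ± 1.24 (SD, n = 6). Below Clec2l the neighbours in that order, Clec3b and Clec2d and then Clec2d and Clec16a, differed by less than the sum of their SDs. The same 4 members led the DAAO libraries, in the same order, at 28.2 ± 9.22, 19.1 ± 11.6, 11 ± 3.78 and 4.74 ± 0.454. There Clec2l and Clec3b differed by less than the sum of their SDs. Clec4d moved from rank 19 of 30 in controls (0.115 ± 0.159) to rank 5 in DAAO libraries (2.46 ± 1.54).

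The 12 members that were not tested had at most 105 counts over all 12 libraries. Of the myeloid ones Clec4b1 had 58 and 47 counts and Clec12b 19 and 27 in controls and DAAO, while Clec4a4, Clec4b2 and Clec4f had 0 in controls and 11, 5 and 2 in DAAO. Clec4a4 shares 9.45% of the 100-base stretches of its transcripts with Clec4a2. Clec2g and the cartilage protein Clec3a had no count in any library, which allows up to 3 counts over all libraries, or 0.0135 CPM, by counting error alone. With no filter beyond 1 count in all, 28 members were tested, and Clec2l and Clec4d were the 2 called.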

How the data were processed

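Total RNA of dorsal root ganglia was sequenced, and the authors deposited 1 table of read counts per gene for 12 libraries, not normalised, with gene names, positions, lengths and biotypes. Per the submitters' processing notes the tools included HISAT2 2.0.5, FastQC and DESeq2 1.20.0, with builds GRCm38 and mm10. The counting program, strand setting and annotation release were not given in the sources used here. If strand was not used, reads of overlapping genes cannot be told apart.

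Groups came from the labels. Genes were kept with filterByExpr (minimum count 10, minimum total 15), leaving 17002 of 54532. The 6 DAAO and 6 control libraries were scaled with TMM and compared by the robust, two-sided quasi-likelihood test of edgeR 4.0.16 (R 4.3.3), with p-values adjusted by Benjamini-Hochberg over these genes and called under 0.05. SE is the absolute log2 fold change over the square root of F. The test was tested on simulated data. The family, its role groups and all lists were chosen with earlier results of these data known. By the rule for named genes, values are given for called members and for up to 4 members of each role group with the highest level or smallest p. They are also given for up to 4 list genes with the smallest p. Clec7a, Clec4e, Card9, Pdpn and Ly6g were described after their values were seen. Positions of all 30 members equal those of GENCODE M21; RefSeq windows matched 24 members, not Clec10a, Clec1a, Clec3a, Clec3b, Clec4a4 or Clec4n. Alternatives were other scaling, DESeq2 1.42.0, limma-voom (limma 3.58.1), other filters, the replicate number as a block and libraries left out. No 2 libraries agreed within sampling noise (smallest chi-square per degree of freedom 20.0 over 66 pairs).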

Additional observations from a re-analysis of the deposited data

Results flagged for a closer look

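A library at the end of its group stood apart from the other 5 in 4 of 38 groups of CPM values checked (gap to the nearest library, as a share of the group's range, above Dixon's 95% critical value). For normally distributed values chance gives about 1 in 20 groups. CPM values of genes with low counts need not be so distributed, so the 4 of 38 cannot be judged against that rate. Clec4d stood at 0.649 CPM in control 3, with the next control at 0.240. Clec5a stood at 2.91 CPM in control 2, with the next control at 0.859. Clec2i stood at 1.96 CPM in DAAO 3, with the next DAAO library at 0.667. Clec3b stood at 40.9 CPM in DAAO 2, with the next DAAO library at 19.0.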

How the results depend on the processing

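The count of family members called was 2. It was 1 with limma-voom, with a minimum count of 50 (where Clec4d was not tested) and without DAAO 2, 3 or 6 (range 1 to 2 when each library was left out), and 3 without controls 2 and 6; Clec2l was called under every alternative run. The cause of these changes was not tested, apart from the filter. Counting members by name alone, an alternative chosen after seeing the data, left 2. Over all genes 128 were called, against 362 with DESeq2, 226 at an adjusted p under 0.1, 648 without controls 2 and 6, and 61 to 322 without each library in turn (80 without control 1, 322 without control 2, 77 without control 5, and 78, 65, 73 and 61 without DAAO 1, 2, 3 and 6). Same-numbered libraries' deviations from their group means correlated from -0.08 to 0.21. In replicates 1, 2 and 4 the control correlated better with its same-numbered DAAO library than with any other. In replicate 3, 1 other DAAO library correlated better, and in replicates 5 and 6, 4 and 3 did. Whether the replicate numbers mark pairs was not tested. With the replicate block 187 genes and 2 members were called, Clec7a passed (adjusted p = 0.0305), and the log2 fold changes of Clec3b and Clec4a3 turned to 0.23 and 0.091. Both were also above 0 with limma-voom (0.26 and 0.14). Clec16a was 0.00051 (adjusted p = 0.999) with library totals alone, and Clec10a was 0.078 without controls 2 and 6. Over the libraries left out in turn 6 uncalled members changed sign: Clec10a (-0.53 to 0.075), Clec16a (-0.13 to 0.048), Clec18a (-0.13 to 0.40), Clec2i (-0.078 to 1.26), Clec3b (-0.51 to 0.25) and Clec4a3 (-0.61 to 0.17). Low counts kept 12 members out of the test, 10 of which were tested without the filter.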
